A study of Mus musculus with 133 samples.

Results

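The tumours described here are the S100a8-high and S100a8-low mammary tumours of an outbred mouse cross, 62 of the 133 arrays of the series. They were chosen by their measured S100a8 level, which was read from its only probeset with a single gene symbol and centred on the mean within each form of sample title. The 31 tumours of the top 25% were called S100a8-high, the 31 of the bottom 25% S100a8-low, and the other 61 middle. The 6 arrays with the suffix r, left unexplained by the labels, and 4 further animals (14094, 14095, 14312 and 14320) were left out by the rule that chose the groups. All animals were female F1 offspring of MMTV-PyMT males and Diversity Outbred females, in which the MMTV promoter drives the polyoma middle T antigen in mammary epithelium, so that high and low tumours share the same driver, while inherited background varies from animal to animal and was not analysed here. The labels name no treatment and no age. Animals carried tumours in several glands, tumours were taken as tumour burden neared the humane endpoint, and each animal used is represented by 1 whole tumour. Titles were either a running number (47 tumours) or a name (76 tumours), which was treated as a possible batch, and the high group held 13 numbered and 18 named tumours against 19 and 12 in the low group.

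S100a8 and its partner S100a9 form calprotectin, a calcium- and zinc-binding protein pair that fills the cytoplasm of neutrophils and is also made by monocytes and by stressed or inflamed keratinocytes. High S100a8 in a whole tumour can therefore go with neutrophil genes, which include surface receptors such as Cxcr2, Csf3r and Ly6g and the proteases and antimicrobial proteins of the granules, or with genes of squamous differentiation, which include suprabasal keratins and the proteins of the cornified envelope. In whole tumours, more cells of a type and more RNA per cell cannot be told apart.

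S100a8 lay between 6.15 and 8.35 (median 7.21) on the log2 scale in the high tumours, between 5.42 and 6.64 (median 5.72) in the middle tumours and between 4.99 and 5.99 (median 5.63) in the low tumours. These levels chose the groups and are a description. S100a8 of every low tumour lay below the lowest array median of its title form, 5.87 in named and 6.12 in numbered titles. The median of the middle tumours also lay below it in named titles (5.61), but not in numbered titles (6.36). The values carry no detection call, so that low S100a8 and a probe without signal cannot be told apart. High and low tumours did not overlap, as the rule requires, and the high group covered a far wider range. After centring, high tumours lay 0.28 to 2.11 above the mean of their title form and low tumours 0.46 to 1.11 below it. At the upper edge the last high tumour (animal 14308) stood at 0.28 and the first middle tumour (13975) at 0.25, and at the lower edge the last low tumour (14275) stood at -0.46 and the first middle tumour (14289) at -0.44, so the groups were cut from a continuous range.

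**Figure D1:**
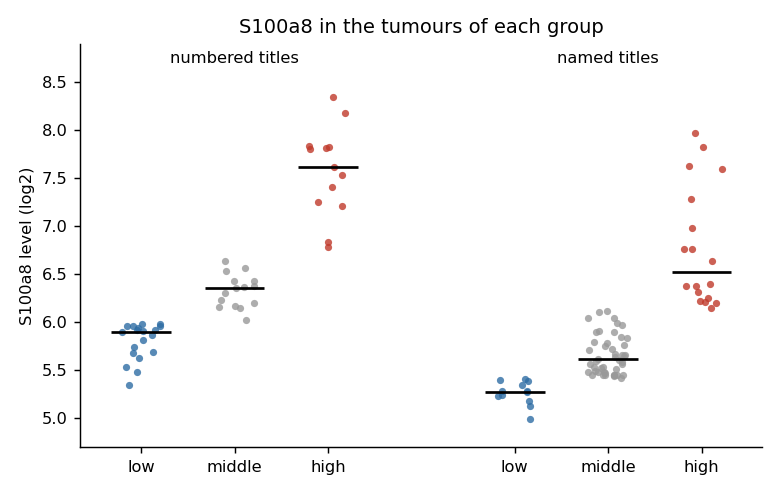
S100a8 level (log2) of each tumour by group, for numbered titles on the left and named titles on the right; each point is 1 tumour and each bar the median. The high tumours spread from 6.15 to 8.35, while the low tumours stay between 4.99 and 5.99.

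The promoters of the calprotectin pair are shown because both genes are regulated by the myeloid factors C/EBP and PU.1 in neutrophil precursors. They are RefSeq sequences of build GRCm38.p6, 250 bases before to 50 bases after the start, at chr3:90668821-90669120 (plus strand) for S100a8 and chr3:90695672-90695971 (minus strand) for S100a9. Capitals mark matches to the C/EBP core TTNNGNAA or the PU.1 core GAGGAAG on either strand.
S100a8: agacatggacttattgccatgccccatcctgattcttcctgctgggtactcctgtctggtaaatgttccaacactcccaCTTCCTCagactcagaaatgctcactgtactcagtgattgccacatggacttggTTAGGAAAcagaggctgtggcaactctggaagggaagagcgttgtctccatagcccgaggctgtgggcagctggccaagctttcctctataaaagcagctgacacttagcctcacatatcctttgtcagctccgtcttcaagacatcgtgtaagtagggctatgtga
S100a9: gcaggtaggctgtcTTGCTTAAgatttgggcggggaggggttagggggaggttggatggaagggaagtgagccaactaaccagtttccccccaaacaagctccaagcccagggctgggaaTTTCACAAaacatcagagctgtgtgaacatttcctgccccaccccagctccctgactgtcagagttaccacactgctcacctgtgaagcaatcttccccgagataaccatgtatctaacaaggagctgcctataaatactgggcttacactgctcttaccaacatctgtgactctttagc
The S100a8 window held 1 match to each motif and the S100a9 window 2 matches to the C/EBP core and 0 to the PU.1 core. Of all 32851 promoters, 40.7% held a C/EBP match and 13.6% a PU.1 match. Of the 30 neutrophil list genes with a promoter in the table, 17 and 15 did. Here only the first promoter of each gene was counted, while the 32851 can hold several promoters of a gene. A match describes letters in this window and was not measured as binding.

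High and low tumours differed in 142 of the 19937 other genes (0.712%), of which 63 (0.316%) were higher and 79 (0.396%) lower in S100a8-high tumours (limma with title form as a covariate, Benjamini-Hochberg adjusted p under 0.05). The median difference over all genes was 0.01 on the log2 scale, and 1551 genes were higher and 1425 lower at an unadjusted p under 0.05, the counts against which those of the gene lists are to be read. All 142 genes had the same sign in numbered and in named titles, which together are the tumours that gave the calls, so this agreement is not independent. Within a title form little passed on its own: 2 genes in the numbered titles (1922 genes at an unadjusted p under 0.05) and 0 in the named titles (1429 genes, limma). The difference between the title forms, tested as an interaction in limma, passed for 0 genes, with 484 at an unadjusted p under 0.05. In the 61 middle tumours, which neither group holds, 0 genes followed S100a8 at the adjusted threshold (limma). There 28 of the 63 higher and 57 of the 79 lower genes had a slope of the same sign. Of the 63 and the 79, 5 and 4 reached an unadjusted p under 0.05 in either direction. Over all 19937 genes, 10060 slopes were above 0, and 426 genes were higher and 406 lower at an unadjusted p under 0.05.

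S100a14, an S100 protein of epithelia, showed the largest difference of all genes that passed. It ran from 4.52 to 9.34 (median 6.95) in high tumours and from 4.58 to 8.01 (median 5.31) in low tumours. The groups overlapped, and 8 of 31 high tumours lay above every low tumour after centring. The difference was 1.45 ± 0.24 (SE) on the log2 scale, 2.73-fold (adjusted p = 0.00197, limma), with 1.66 in numbered and 1.21 in named titles. S100a9, the direct partner of S100a8, ran from 5.18 to 7.04 (median 5.57) in high and from 5.11 to 5.83 (median 5.35) in low tumours. Most high tumours fell inside the low range, and 10 exceeded it. In low tumours, the S100a9 levels lay below every array's median, as did its median in high tumours. Its difference was 0.37 ± 0.09 (adjusted p = 0.0405, limma), and it lost the call without the high tumour of animal 14185 (0.33, adjusted p = 0.0673).

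These were the only members of the S100 list that passed, 2 of 15, where 0.316% of all genes were higher. The median difference of the list was 0.11, with 5 higher and 1 lower at an unadjusted p under 0.05 (limma). S100a8 lies among them on chromosome 3, where S100a9 is the next gene and S100a14 is 8 genes away in RefSeq order. Between S100a14 and S100a8 the differences were 0.70 for S100a3, 0.41 for S100a6 and 0.45 for S100a7a, which did not pass (adjusted p from 0.0956 to 0.211, limma), and 0.13, 0.10 and 0.03 for S100a16, S100a4 and S100a5. Of the 50 genes on each side of S100a8, 2 of 100 were higher and 0 lower, where 0.316% of all genes were higher. Their median difference was 0.11, against 0.01 for all genes. Of the genes for S100a8 receptors and the NADPH oxidase, 0 of 9 passed (0 higher and 1 lower at an unadjusted p under 0.05, limma). Tlr4, a receptor for calprotectin, differed by -0.04 and Ager, which encodes the receptor RAGE, by 0.00.

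The 10 genes whose levels followed S100a8 most closely over all tumours used (47 numbered and 76 named) were Krt6b (r = 0.598), Il1f9 (0.597), Il1f5 (0.590), S100a14 (0.586), Endou (0.581), Prr9 (0.576), Krt73 (0.574), Spink12 (0.573), Sprr1b (0.572) and S100a3 (0.571), picked for this likeness and given as a description. Krt6b is a stress keratin, Sprr1b a protein of the cornified envelope, Il1f9 and Il1f5 the epithelial cytokines IL-36 gamma and the IL-36 receptor antagonist, and Krt73 a keratin of the hair follicle's inner root sheath. No gene of the neutrophil lists was among them. Of the 10, Prr9, S100a3 and S100a14 lie 5, 6 and 8 genes from S100a8 on chromosome 3. Of the squamous list, Lor, Sprr2b, Sprr2d, Sprr2e and Sprr2h lie 4 to 12 genes from it. The part of this nearness in their levels was not tested. This ranking by Pearson's r gives weight to the few tumours with very high squamous genes. Over the same tumours, the mean level of the squamous differentiation genes had r = 0.493 and rho = 0.234 with S100a8 and that of the neutrophil genes r = 0.353 and rho = 0.314, so that the order of the lists turned with the measure.

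Of the neutrophil genes, 1 of 33 was higher and 0 were lower in high tumours, and their median difference was 0.07 against 0.01 for all genes. The surface and signalling list had 0 of 17 and the granule list 1 of 16, where 0.316% of all genes were higher. At an unadjusted p under 0.05 (limma), 8 of the 17 and 2 of the 16 were higher and 0 lower, beside 1551 of all 19937 genes higher. The gene that passed was Prtn3, proteinase 3 of the primary granules. It ran from 5.65 to 7.77 (median 6.49) in high and from 5.40 to 6.87 (median 6.16) in low tumours. The ranges overlapped widely, with 12 high tumours above the low range after centring. The difference was 0.42 ± 0.09 (adjusted p = 0.0122, limma). Its neighbours on chromosome 10 are Plppr3, which is not a neutrophil gene and was higher by 0.47 ± 0.09 (adjusted p = 0.00416), and Elane, neutrophil elastase, which is made in the same precursors and differed by -0.02 ± 0.03 (adjusted p = 0.835).

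Cxcr2, the receptor that guides neutrophils towards chemokines, came next. It ran from 3.69 to 6.81 (median 4.27) in high and from 3.55 to 5.23 (median 3.95) in low tumours. Only 3 high tumours exceeded the low range. Levels of Cxcr2 in all low tumours, and its median in high tumours, lay below every array's median. Its difference of 0.47 ± 0.13 missed the threshold (adjusted p = 0.0515, limma), as did 0.37 ± 0.12 for the gelatinase Mmp9 (adjusted p = 0.0900), 0.17 for Trem1 (0.0561) and 0.20 for Clec4e (0.109). The defining marker Ly6g varied little, between 3.81 and 4.66 in high and between 3.85 and 4.69 in low tumours. These levels, like those of Mmp8, lay below every array's median, and the values carry no detection call, so that a probe without signal and a gene without difference cannot be told apart. The difference of Ly6g was 0.05 ± 0.04 (adjusted p = 0.639), that of the G-CSF receptor Csf3r 0.07 ± 0.06 (0.623), and those of the granule genes Mpo, Camp and Mmp8 0.03, 0.04 and 0.03 (adjusted p from 0.665 to 0.831). With 1 of 33 markers past the threshold the groups are not called neutrophil-rich or neutrophil-poor here, but by S100a8 alone.

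Of the genes that draw or expand neutrophils, 0 of 13 passed (4 higher and 0 lower at an unadjusted p under 0.05, limma). Cxcl1 and Cxcl2, the main neutrophil chemokines of the mouse, differed by 0.10 and 0.12, Csf3, which encodes G-CSF, by 0.09, and Il6 by 0.00. Of the transcription factors, 0 of 6 passed (0 higher and 1 lower at an unadjusted p under 0.05), with 0.01 for Cebpe, which drives late granule genes, and -0.02 for Spi1, which encodes PU.1. Among genes that neutrophils and epithelium share, 1 of 11 passed, S100a9, where 0.316% of all genes were higher (4 higher and 0 lower at an unadjusted p under 0.05). Lcn2, lipocalin 2 of the secondary granules, varied little among tumours (12.79 to 13.30 in high, 12.88 to 13.30 in low) and differed by 0.00. Its levels lay near the highest value on any array, 14.00, and saturation of the probe was not tested.

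Of the squamous genes, 0 of 58 passed in either direction (45 higher and 0 lower at an unadjusted p under 0.05, limma, beside 1551 and 1425 of all 19937 genes), although 57 of 58 differences were above 0 and their median was 0.39. The spread inside the high group was large. Krt6b, induced in wounded and stressed epithelium and a close copy of Krt6a that probes may not tell apart from it, ran from 4.51 to 10.50 (median 4.96) in high and from 4.33 to 6.41 (median 4.83) in low tumours. The medians were close and both below every array's median, and 9 high tumours exceeded the low range after centring. Its difference was 1.20 ± 0.37 (adjusted p = 0.0876, limma). Krt1, a suprabasal keratin of the epidermis, ran from 4.77 to 11.28 (median 5.15) in high and from 4.89 to 5.64 (median 5.07) in low tumours. The medians were again close and below every array's median, and 10 high tumours lay above the low range. The values carry no detection call, so that close medians and probes without signal cannot be told apart for Krt6b and Krt1. The difference of Krt1 was 1.33 ± 0.37 (adjusted p = 0.0612). Klk7, a protease that sheds the cornified layer, differed by 1.21 ± 0.34 (adjusted p = 0.0623), with 5.74 to 11.25 in high and 5.60 to 6.56 in low tumours, and Krt10, the partner of Krt1, by 0.83 ± 0.26 (0.0957). Krt14 of the basal layer differed by 0.74 (adjusted p = 0.0907) and Krt5, its partner, by 0.26 (0.738), and 0 of 10 basal keratinocyte genes passed (3 higher and 0 lower at an unadjusted p under 0.05).

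**Figure D2:**
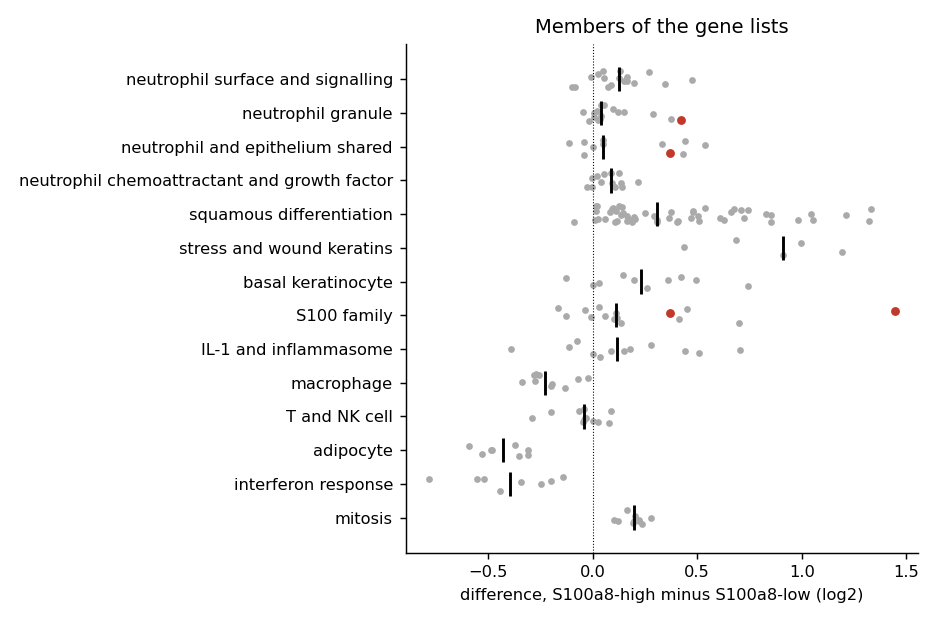
Difference between S100a8-high and S100a8-low tumours (log2, horizontal axis) for each measured member of 14 gene lists; each point is 1 gene, red where the adjusted p was under 0.05, and the bar is the list's median. Neutrophil granule genes cluster near 0 (median 0.04), squamous genes reach 1.33 without passing, and S100a14 stands at 1.45.

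When S100a8 was used as a continuous measure over all tumours, more genes passed: 425 were higher (2.13%) and 174 lower (0.873%) with rising S100a8 (limma slope with title form). Squamous differentiation genes made 35 of 53 of their list, the stress keratins 5 of 5, the neutrophil surface list 5 of 17 and the granule list 2 of 16, with 0 lower in each. The slope was 1.00 ± 0.12 per log2 unit of S100a8 for Krt6b (adjusted p = 1.75e-09) and 0.95 ± 0.15 for Krt1 (1.79e-06). It was 0.28 ± 0.06 for Cxcr2 (0.000271), 0.22 ± 0.04 for Prtn3 (0.000184), 0.22 ± 0.06 for Mmp9 (0.00742) and 0.26 ± 0.06 for Padi4 (0.00344), the enzyme of neutrophil extracellular traps. Without any 1 of the 62 high or low tumours, between 1.52% (without animal 14290) and 2.37% of all genes passed upwards and between 0.507% (without animal 14290) and 1.12% downwards. In the same fits, between 34 and 40 squamous genes and between 4 (without animal 14037) and 7 neutrophil genes passed. Several high tumours shared very high squamous differentiation genes, with mean centred levels of 1.84 in animal 14290, 1.59 in 14037 and 1.54 in 14185. Leaving out 1 tumour at a time does not show their joint part in the slopes, which was not tested. By rank, S100a8 had rho = 0.234 with the squamous mean and 0.314 with the neutrophil mean. In named titles alone 33 squamous and 5 neutrophil genes passed upwards, among 281 of all 19937 genes. In numbered titles alone 1 and 0 did, among 5 of all genes. In the middle tumours, the slopes of Krt6b and Krt1 were 0.41 and -0.30, and no gene passed there.

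In the IL-1 and inflammasome list, 4 of 12 genes passed the adjusted threshold with a positive slope over all tumours, where 2.13% of all genes did. Il1f9 differed by 0.71 ± 0.21 between high and low tumours (adjusted p = 0.0781), Il1rn, the IL-1 receptor antagonist, by 0.44 ± 0.13 (0.0829) and Il1b, made by activated myeloid cells, by -0.11 (0.764). None of its 12 members passed between the groups (6 higher and 1 lower at an unadjusted p under 0.05, limma).

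**Figure D3:**
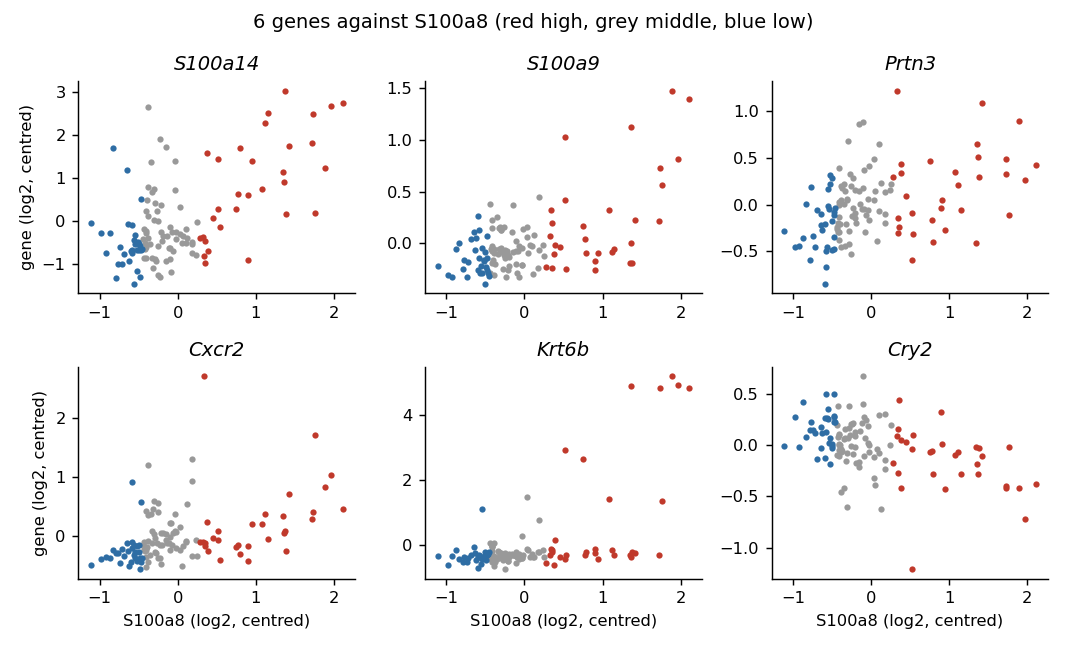
Level of 6 genes (log2, centred within title form, vertical axes) against S100a8 (log2, centred, horizontal axes), 1 point a tumour, red for high, grey for middle and blue for low. S100a14 climbs through the high tumours, Krt6b is near its base in most of them and far above it in a few, and Cry2 is lower in high tumours.

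Neutrophil and squamous genes were high in partly different tumours, although their mean levels tended to rise together. The squamous score, the mean centred level of the squamous differentiation genes, ran from -0.30 to 1.87 (median -0.12) in high tumours and from -0.32 to 0.39 (median -0.18) in low tumours. The neutrophil score, the mean over the 33 neutrophil genes, ran from -0.19 to 0.39 (median 0.01) in high and from -0.29 to 0.15 (median -0.05) in low tumours. Both scores overlapped between the groups. Of the 31 high tumours, 8 lay above every low tumour in the squamous score and 6 in the neutrophil score. Of these, 3 did so in both, while 20 of the 31 did so in neither. Over all tumours used, the neutrophil and squamous scores had r = 0.28 and rho = 0.416 with each other. In named titles these were 0.35 and 0.51, in numbered titles 0.0966 and 0.167, and within the high group 0.307 and 0.361. Ptprc, the common leukocyte antigen CD45, had a median centred level of -0.12 in high and 0.10 in low tumours. With its level as a further term, 0.401% of genes were higher and 0.512% lower, with 3 of 33 neutrophil and 1 of 58 squamous genes higher.

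**Figure D4:**
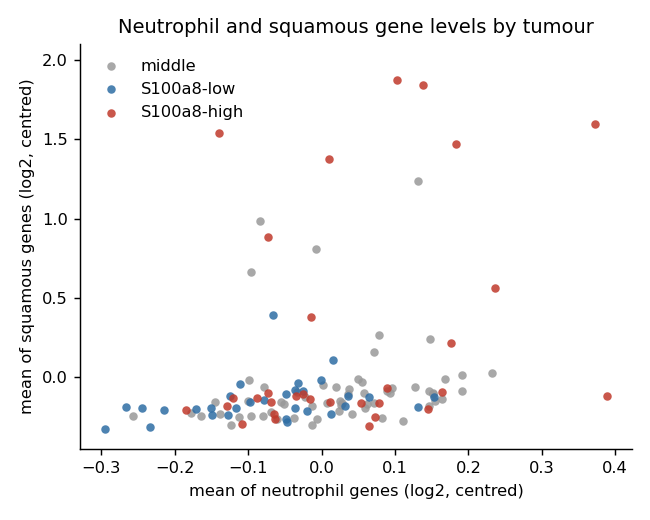
Mean level of the squamous differentiation genes (vertical axis) against that of the 33 neutrophil genes (horizontal axis), both log2 and centred within title form, 1 point a tumour. Of the S100a8-high tumours 8 stand above all low tumours on the squamous axis, and 20 exceed the low tumours on neither axis.

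The scores were then added to the model in turn. With the squamous score as a further term, 33 genes were higher (0.166%) and 27 lower (0.135%) in high tumours. Neutrophil genes then had 0 of 33, with a difference of 0.36 for Prtn3 (adjusted p = 0.0792, against 0.42 without the score) and 0.39 for Cxcr2 (0.199, against 0.47). That of S100a9, of the shared list, was 0.15 (0.357), against 0.37 without the score. S100a14 still passed, at 1.06 (adjusted p = 0.0211). With the neutrophil score, 75 genes were higher (0.376%) and 69 lower (0.346%), 0 of 58 squamous genes passed, with 0.85 for Krt6b (adjusted p = 0.293), and S100a14 remained at 1.35 (0.00951). For the slope over all tumours, an alternative chosen after these values were seen, the neutrophil score left 37 of 58 squamous genes and the squamous score left 1 of 33 neutrophil genes, Prtn3 at 0.22 ± 0.05 (adjusted p = 0.0279). Of the 6 that lost the call with the squamous score, the slope went from 0.28 to 0.23 for Cxcr2, from 0.14 to 0.12 for Clec4e and from 0.10 to 0.09 for Trem1, and from 0.26 to 0.03 for Padi4, from 0.22 to 0.12 for Mmp9 and from 0.12 to 0.07 for Clec4d. S100a14 and S100a9 passed in this fit, S100a14 with 0.60 ± 0.11 (adjusted p = 0.00456, against 0.86 without the score) and S100a9 with 0.14 ± 0.03 (0.0347, against 0.26). In these fits 0.166% and 2.69% of all genes passed upwards with the squamous and the neutrophil score, respectively. Differences of calls between such fits were not tested. Adding the neutrophil score also changed the differences of other cell types' genes. Between high and low tumours, 9 of 10 macrophage genes were lower with it and 3 without, at an unadjusted p under 0.05 (limma). Of the adipocyte genes, 8 of 8 were lower with it and 1 without. Over all 19937 genes, 1402 were lower with it and 1425 without. How far the score follows neutrophils alone was not tested.

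Among the other higher genes, both mouse kininogens, precursors of the vasoactive kinins and similar neighbours on chromosome 16 that array probes may not tell apart, were higher, Kng2 by 0.81 ± 0.15 (adjusted p = 0.00323, limma) and Kng1 by 0.45 ± 0.11 (0.0206). Kng2 ran from 5.17 to 8.53 (median 6.50) in high and from 5.10 to 7.36 (median 5.86) in low tumours. The groups overlapped, with 8 high tumours above the low range after centring. Slc30a2, which loads zinc into vesicles and milk, was higher by 0.62 ± 0.16 (adjusted p = 0.0387) and Slc39a4, a zinc importer, by 0.61 ± 0.16 (0.0444). Gja1, connexin 43 of gap junctions, was higher by 0.66 ± 0.16 (adjusted p = 0.0246) and Fabp5, the epidermal fatty acid-binding protein, by 0.61 ± 0.14 (0.0147). Tmprss4, a membrane serine protease, Atp6v1c2, a subunit of the vacuolar proton pump, and Mtmr7, a phosphoinositide phosphatase, were higher by 0.61, 0.63 and 0.76. In numbered and in named titles, Mtmr7 differed by 1.11 and 0.38, Tmprss4 by 0.45 and 0.78 and Atp6v1c2 by 0.40 and 0.89.

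Pros1, the anticoagulant protein S and a ligand of TAM receptors, was higher by 0.49 ± 0.09 (adjusted p = 0.00249), from 9.24 to 10.45 in high against 8.65 to 10.11 in low tumours. In 11 high tumours it exceeded the low range after centring. Susd4, an inhibitor of complement, was higher by 0.55, the phosphodiesterase Pde7a by 0.46, and Bola1, Gm10791 and Plppr3 by 0.49, 0.47 and 0.47, which completes the 15 largest differences upwards.

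Of the lower genes, Agt, which encodes angiotensinogen, showed the largest difference. It ran from 5.66 to 9.84 (median 7.06) in high and from 6.61 to 9.47 (median 8.09) in low tumours. Although the ranges overlapped, 8 high tumours lay below every low tumour after centring. The difference was -0.93 ± 0.21 (adjusted p = 0.0146, limma). Rtn1, a reticulon of the endoplasmic reticulum, ran from 6.47 to 9.13 (median 7.82) in high and from 7.28 to 10.30 (median 8.60) in low tumours. It differed by -0.86 ± 0.19 (adjusted p = 0.0147), but by -0.32 in numbered and -1.43 in named titles. The MAPK pathway inhibitor Spry4 was lower by 0.50 ± 0.12 (adjusted p = 0.0174), the Notch target Hey1 by 0.50 ± 0.13 (0.0405), the ErbB ligand Nrg2 by 0.46 ± 0.10 (0.0142) and the Rap1 inactivator Rap1gap by 0.48 ± 0.13 (0.0481). In numbered and in named titles, Spry4 differed by -0.23 and -0.79 and Hey1 by -0.29 and -0.73. Nrg2 differed by -0.33 and -0.59 there and Rap1gap by -0.38 and -0.59. B4galt6, which makes lactosylceramide, was lower by 0.60 and the sialyltransferase St6galnac6 by 0.58. Mpped2, Acot6, Ifi27, Per2, Slc9a3r2, Tmem37 and Crispld1, the other genes of the 15 largest differences downwards, were lower by 0.39 to 0.62. Of these, Tmem37 differed by -0.18 in numbered and -0.63 in named titles.

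Markers of other cell types gave 0 calls between the groups in each list. Macrophage genes had differences below 0 for all 10 measured members (median -0.23, 0 higher and 3 lower at an unadjusted p under 0.05, limma), with -0.27 for Csf1r and -0.26 for Adgre1. The 8 adipocyte genes were below 0 as well (median -0.43, 0 higher and 1 lower), with -0.49 for Adipoq, and so were the 8 interferon response genes (median -0.39, 0 higher and 1 lower), with -0.78 for Ifit3. The 10 mitosis genes were above 0 (median 0.20, 8 higher and 0 lower), with 0.28 for Top2a and 0.22 for Birc5 (adjusted p = 0.0644 and 0.0704). The part of these cell types in the differences above was not tested.

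The genes that were higher in high tumours were unevenly placed on the genome, a pattern picked after the values were seen and given without a test. Of the 63, 26 (41.3%) lie on chromosome 11, which holds 7.86% of the genes placed, and 0 of the 79 lower genes do. Chromosome 3, with S100a8 itself, came next with 9 and chromosome 16 with 7. Along the chromosome, 5 stretches of equal gene number held 7, 6, 5, 7 and 1 of the 26 genes. Their differences were small, from 0.11 to 0.33 (median 0.21). Over all 1566 genes of chromosome 11 the median difference was 0.03, with 72% above 0 against 69.5% on chromosome 16, 65.6% on chromosome 3 and 55.6% of all genes placed, and it was 0.03 in both title forms, while the medians of the other autosomes and chromosome X ran from -0.01 to 0.03. Among the 26 were Npm1, nucleophosmin of the nucleolus (0.26 ± 0.06, adjusted p = 0.0326), the nucleoside diphosphate kinases Nme1 (0.19 ± 0.04, 0.0211) and Nme2 (0.19 ± 0.04, 0.0125), the nuclear import receptor Kpnb1 (0.21 ± 0.04, 0.00486), the mitochondrial channel Vdac1 (0.17 ± 0.03, 0.00567) and the DNA repair gene Brca1 (0.29 ± 0.07, 0.0387). The mean centred level of chromosome 11 ran from -0.07 to 0.14 (median 0.00) in high and from -0.10 to 0.11 (median -0.04) in low tumours, so the groups overlapped. With this level as a further term, an alternative added after the data were seen, 38 genes were higher and 32 lower.

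**Figure D5:**
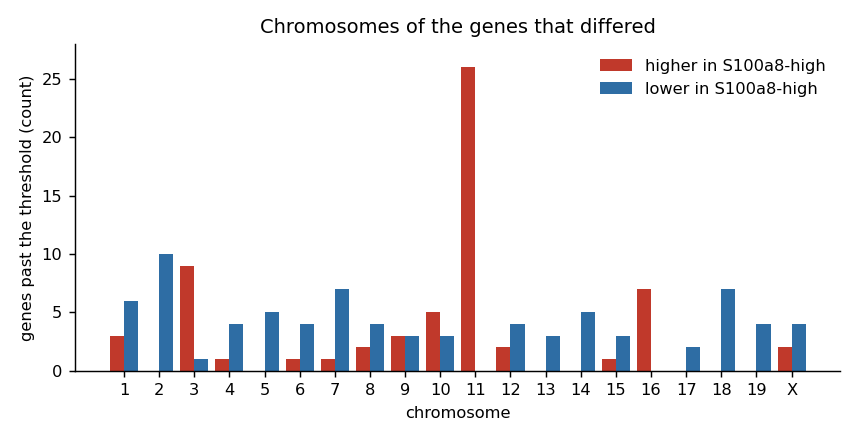
Number of genes past the threshold (vertical axis) on each chromosome (horizontal axis), red for genes higher and blue for genes lower in S100a8-high tumours. Chromosome 11 holds 26 higher and 0 lower genes, and the next chromosome 9 higher genes.

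Genes of the circadian clock were a further group picked after the values were seen. Of 16 measured, 5 were lower and 0 higher in high tumours, where 0.396% of all genes were lower, with a median of -0.21, and the study's text used here gives no hour of collection for a tumour. The repressors Per2 (-0.43 ± 0.11, adjusted p = 0.0440), Per3 (-0.26 ± 0.06, 0.0256) and Cry2 (-0.33 ± 0.06, 0.00486) and the output factors Dbp (-0.34 ± 0.09, 0.0424) and Tef (-0.23 ± 0.06, 0.0479) were lower (limma). Per3 ran from 6.27 to 7.52 (median 7.08) in high and from 7.03 to 7.62 (median 7.30) in low tumours, so that the groups overlapped and the high group reached lower levels. Clock, the activator of the loop, differed by 0.00, Arntl, its partner, by -0.14 (adjusted p = 0.400) and Nr1d1 by -0.16 (0.587).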

How the data were processed

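RNA was measured on Affymetrix Mouse Gene 1.0 ST arrays. The deposited log2 values were made by the authors with RMA (background correction, quantile normalization, summary per probeset), whose version, like the genome build, is not given in the sources used here. Probesets with 1 gene symbol in the platform table (21789 of 35556) gave 19938 genes, each by its probeset of highest mean. Array medians were 5.96 ± 0.05 (SD) in named and 6.18 ± 0.03 in numbered titles. An array gives no read depth, so precision rests on how many arrays a group holds. Groups were the top and bottom 25% of S100a8 centred within title form. High minus low was fitted with limma (version 3.58.1, run in R 4.3.3, with a mean-variance trend in eBayes and 2-sided tests) with title form as a covariate, with Benjamini-Hochberg adjustment over all genes but S100a8 and a threshold of 0.05. Per-gene levels are as deposited, while differences are from the fit. P-values measure the spread between animals, 1 tumour each. The text names the 15 genes per direction that differed most with 1 sign in both title forms, list members and the 10 genes most correlated with S100a8. The groups and lists were chosen with earlier results of these data known. RefSeq's table (GRCm38.p6) gave gene order and promoters. Alternatives varied the arrays, thresholds, normalization, fit and covariates.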

Additional observations from a re-analysis of the deposited data

How the results depend on the processing

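Of all genes tested, 0.316% were higher and 0.396% lower in S100a8-high tumours, with 1 neutrophil and 0 squamous genes higher and 0 of either lower. These 4 values (higher, lower, neutrophil and squamous) were 0.01%, 0%, 0 and 0 in numbered titles alone, 0%, 0%, 0 and 0 in named titles alone (limma; 1922 and 1429 genes at an unadjusted p under 0.05), 0.692%, 0.657%, 4 and 3 with the left-out arrays put back, 2.13%, 0.873%, 7 and 40 for the slope over all tumours, 0.908%, 0.777%, 4 and 22 with all tumours in 1 fit and 0.918%, 0.928%, 2 and 5 with array weights. Without genes below the 30th percentile, 0.724% were higher and 1.10% lower, with 2 squamous genes. Groups of the upper and lower tertile gave 0.607% lower and 2 neutrophil genes. Neutrophil genes numbered 2 with S100a8 centred on the median or with eBayes without trend, 3 with Ptprc as a term and 0 with the squamous score, which left 0.166% higher and 0.135% lower. Squamous genes numbered 1 with Ptprc as a term and 1 with the chromosome 11 level, which left 0.191% and 0.161%. The slopes added after seeing the data gave 0.166% and 0.0752% with the squamous score and 2.69% and 2% with the neutrophil score, the last with 37 squamous genes. Leaving out 1 tumour gave 0.191% (without animal 14001) to 0.527% (without 13951) higher, 0.231% (without 14061) to 0.737% (without 13999) lower, 1 to 3 (without 14264) neutrophil and 0 to 4 (without 13951) squamous genes. The cause was not tested. All 142 genes kept their sign in each of these settings that tested them, single left-out tumours aside. These settings refit the tumours that gave the calls, so this agreement is not independent. Gene by gene, single tumours were examined for 54 genes only, each at the 1 tumour whose removal gave the highest adjusted p. Among these, single tumours ended the call of Mtmr7, Hey1, Rap1gap, Per2 and Tmem37 (14275), Slc30a2 (14086), Slc39a4 and B4galt6 (14061), S100a9 and Ppl (14185), Dbp and Tef (14280) and Npm1 and Brca1 (14250), at adjusted p from 0.0563 to 0.0783 (limma). The other genes were not examined in this way. No paired analysis was possible because each animal gave 1 tumour and no number pairs high with low tumours.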

Other observations

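The 10 arrays that the rule left out had S100a8 levels from 4.52 (animal 14022) to 7.27 (animal 14252). The 6 with the suffix r, which the labels do not explain, included both of these extremes.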
